A study of Homo sapiens with 4 samples.

Results

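The RNA that streptavidin beads retained without a biotin tag was described in the 2 miR-28CT pull out libraries of the series, which holds 4 libraries in all. They were chosen by their titles alone, which call them control replicates 1 and 2, and no value of the other libraries was used. The cells were DU-145, an established human prostate carcinoma line. Both cultures received 60 nM of an untagged miR-28-5p duplex by lipofection, were irradiated with UV light and gave total RNA, which was incubated with streptavidin-conjugated Sepharose beads. After the washes, the RNA left on the beads was recovered with TRIzol and sequenced as stranded total RNA libraries with single reads of 50 bases. The series describes the pull outs as biological replicates, and a further control pull out named in its design text was not analysed here.

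These groups set limits on what the libraries can model. The cells carried extra miR-28-5p, so the libraries are a background for the pull out procedure and not for untreated DU-145 cells. The RNA put on the beads was not analysed here, so retention by the beads and abundance in the cells cannot be told apart. Each replicate is 1 library, so no test was made, and the values of both libraries are given side by side.

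The leading RNAs of this background belong to a few families with known roles. RN7SL1 and RN7SL2 encode the 7SL RNA, the scaffold of the signal recognition particle that guides secretory proteins to the endoplasmic reticulum, and RN7SK encodes 7SK, which holds the elongation factor P-TEFb in an inactive complex. RMRP and RPPH1 are the RNA subunits of RNase MRP and RNase P, which process ribosomal and transfer RNA precursors. C/D box and H/ACA box snoRNAs guide 2′-O-methylation and pseudouridylation of ribosomal RNA, and the related Cajal body RNAs (SCARNA) do the same for spliceosomal RNAs. Most human snoRNAs are cut out of the introns of host genes, many of which encode ribosomal proteins.

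The sequences of 3 RNAs that the results turn on are shown: RMRP, and both a snoRNA that was lower and a snoRNA that stayed close in replicate 2. They were read from hg38 at the positions of the deposited records, with the strand of GENCODE 44. RMRP, at chr9:35657751-35658018 on the minus strand, has 268 bases and no capitals.
RMRP: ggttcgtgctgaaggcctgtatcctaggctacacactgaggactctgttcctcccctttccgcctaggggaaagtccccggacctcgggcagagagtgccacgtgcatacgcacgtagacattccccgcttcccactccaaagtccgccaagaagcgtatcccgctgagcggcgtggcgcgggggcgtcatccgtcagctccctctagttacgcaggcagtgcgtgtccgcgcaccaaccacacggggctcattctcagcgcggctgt
SNORD102 (chr13:27255064-27255135, plus strand) and SNORD58A (chr18:49491283-49491347, minus strand) are C/D box snoRNAs, and the capitals mark TGATGA and CTGA, the letters of the C and D boxes.
SNORD102: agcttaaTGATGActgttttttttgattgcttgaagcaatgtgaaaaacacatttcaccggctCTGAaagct
SNORD58A: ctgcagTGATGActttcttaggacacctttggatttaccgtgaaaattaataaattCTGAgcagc

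TGATGA followed by CTGA, searched on the transcribed strand, was found in 188 of the 249 C/D box snoRNA sequences (75.5%) and in 1 of the 106 H/ACA box sequences (0.943%). A match of these letters is a description of the sequence, and the classes were set from gene symbols.

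Abundance was given as FPKM, fragments per kilobase of transcript after division by library depth, so levels below are per length. The depth behind the FPKM, worked out from coverage and FPKM in units of 1e+06 reads, was 17.9 in replicate 1 and 13.0 in replicate 2. Of 53209 deposited transcript records, 52534 had the Cufflinks status OK in both libraries, and those with a symbol were summed to 24598 genes. FPKM reached at least 1 in both libraries for 8396 genes, of which 8086 were coding and 310 noncoding, in replicate 1 only for 1092 and in replicate 2 only for 909. A value of 0 in both libraries was listed for 9968 genes.

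Polymerase III structural RNAs were the highest RNAs of both libraries. RN7SK had 42955 FPKM in replicate 1 and 197925 in replicate 2, and RN7SL2 had 16328 and 400091. RPPH1 had 15073 FPKM in replicate 1 and 98926 in replicate 2, and RMRP had 10544 and 248537. These 4 genes took the first 4 ranks in each library, with RN7SK highest in replicate 1 and RN7SL2 highest in replicate 2. Together they made up 37.6% of the FPKM of replicate 1 and 78.6% of replicate 2.

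The order of these RNAs therefore differed between the libraries. To compare them, FPKM were scaled by median-of-ratios factors, and positive log2 ratios mean higher values in replicate 2. The log2 ratio of scaled FPKM was 4.93 for RN7SL2, 4.87 for RMRP, 3.03 for RPPH1 and 2.52 for RN7SK. RNY1, which encodes a Y RNA bound by the Ro60 protein, went the other way with 1226 FPKM in replicate 1 and 369 in replicate 2. RNY5 was listed at 0 in replicate 1 and had 403 FPKM in replicate 2. Of the 13 genes of this class, 7 were at 0 in both libraries, and vault RNAs were among those without a value above 0.

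RN7SL1 differed in status rather than in a measured level. It had 2586 FPKM in replicate 1, and replicate 2 listed it at 0 with the status HIDATA, which Cufflinks gives when a locus holds too many fragments to be estimated. The 7SL total of replicate 2 therefore rests on RN7SL2 alone. RPS29, a protein of the small ribosomal subunit, has a record of 336 bases that lies 163 bases from RN7SL1, and that record had 40.9 FPKM in replicate 1 and 8035 in replicate 2. The part of 7SL reads in the RPS29 value was not tested.

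**Figure D1:**
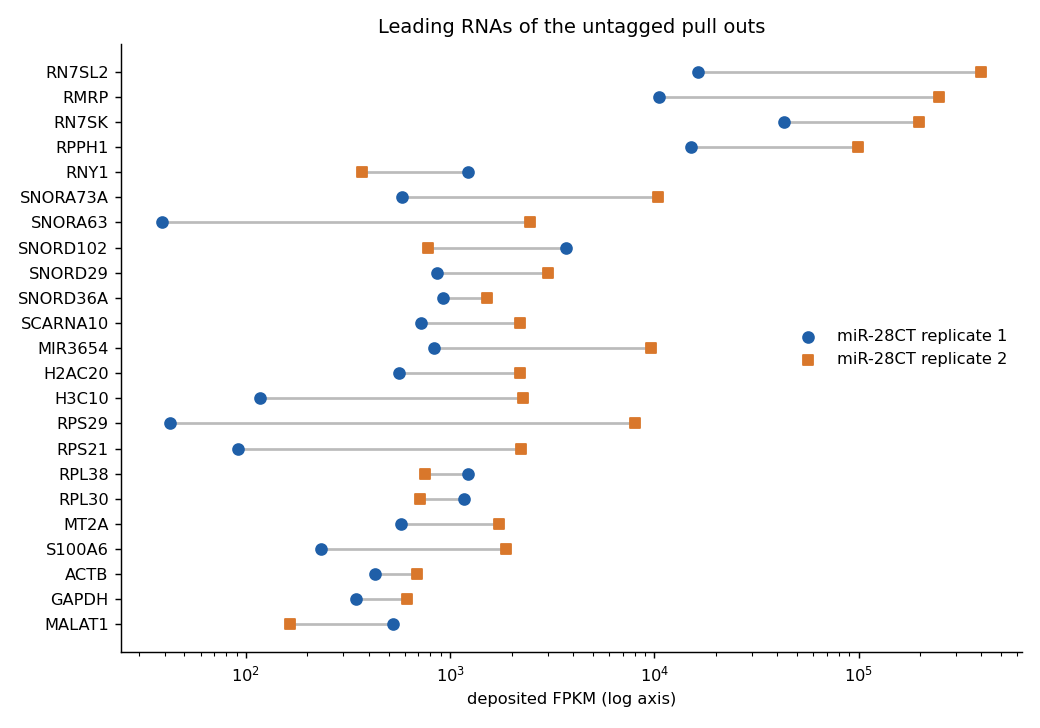
Deposited FPKM of leading RNAs in each miR-28CT library, on a log axis, with a line joining the replicates. The 4 RNAs at the top, RN7SL2, RMRP, RN7SK and RPPH1, hold the first 4 ranks in both libraries, while RPL38, RPL30 and MALAT1 are lower in replicate 2.

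The share of each RNA class in the summed FPKM shows how differently the libraries were made up. Polymerase III structural RNAs held 38.1% of the FPKM in replicate 1 and 78.7% in replicate 2, a mean of 58.4% ± 28.7 (SD, n = 2). Messenger RNAs other than those of replication-dependent histones held 48.0% in replicate 1 and 11.6% in replicate 2, a mean of 29.8% ± 25.8 (SD, n = 2). Their summed FPKM was higher in replicate 2 (139052) than in replicate 1 (108582), while the polymerase III sum was 86125 in replicate 1 and 946252 in replicate 2.

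The other classes held smaller shares. C/D box snoRNAs held 5.86% in replicate 1 and 2.67% in replicate 2, and H/ACA box snoRNAs held 1.03% and 1.71%. Replication-dependent histone mRNAs, which have no poly(A) tail, held 2.14% and 2.29%, and microRNA hairpin records held 0.995% and 1.63%. Cajal body RNAs held 0.718% and 0.405%, spliceosomal snRNAs 0.248% and 0.129%, and snoRNA host genes 0.269% and 0.0815%. Some directions turned on other scales described below. With estimated reads, Cajal body RNAs held 0.156% and 0.280% and spliceosomal snRNAs 0.0242% and 0.0366%. With interval midpoints, Cajal body RNAs held 0.445% and 0.561%, spliceosomal snRNAs 0.0382% and 0.0224%, and histone mRNAs 2.02% and 1.66%.

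The picture depends on counting molecules per length or reads. When reads were estimated from coverage and length, polymerase III structural RNAs held 8.30% of replicate 1 and 50.0% of replicate 2, and other messenger RNAs 85.2% and 43.9%. On that scale C/D box snoRNAs held 0.318% and 0.453%. With the midpoint of the deposited Cufflinks interval, described below, polymerase III structural RNAs held 22.4% and 56.6%, and other messenger RNAs 70.2% and 36.7%. With that midpoint times length, the former held 3.47% and 17.0% and the latter 90.8% and 77.0%. Replicate 2 had the larger polymerase III share on each of these scales. On the last, other messenger RNAs held most of both libraries.

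**Figure D2:**
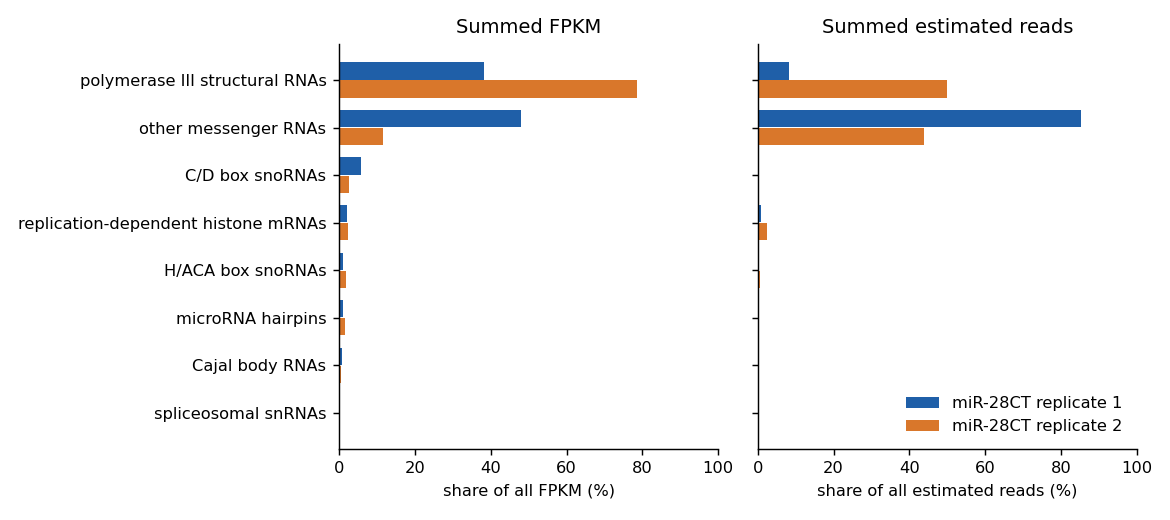
Share of each RNA class in the summed FPKM (left) and in reads estimated from coverage and length (right), in percent, for both miR-28CT libraries. The polymerase III bar is longer in replicate 2 in each panel (78.7% against 38.1% of FPKM), and the bar of other messenger RNAs is longer in replicate 1.

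Among C/D box snoRNAs, SNORD102 led replicate 1 with 3692 FPKM and had 778 in replicate 2. SNORD29 led replicate 2 with 3030 FPKM and had 864 in replicate 1. SNORD36A, from an intron of RPL7A, had 923 and 1512 FPKM, and SNORD80 and SNORD47, both from introns of GAS5, had 761 and 1600 and 513 and 2058. SNORD58A was close between the libraries at 665 and 872 FPKM. The order of the class thus changed, and SNORD102 was the member of this group that was lower in replicate 2.

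Several other C/D box snoRNAs were seen in a single library. SNORD12B, SNORD44 and SNORD74 were listed at 0 in replicate 1 and had 1253, 1157 and 808 FPKM in replicate 2. In all, 42 of the 258 genes of the class were at 0 in replicate 1 and at 10 FPKM or more in replicate 2, and 10 showed the opposite, while 165 were at 0 in both. Of all 24598 genes, 105 (0.427%) and 37 (0.15%) did so, and messenger RNAs other than histones had 11 and 2 of 18662. Only a mean coverage is given per record and no read count, so an absence in a single library cannot be read from a listed 0.

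Of the 93 C/D box snoRNAs whose scaled FPKM averaged 1 or more, 40 reached 1 FPKM in both libraries. The others passed through the library in which they were high and had to differ, so no count or median over the 93 is given. With the midpoint of the deposited Cufflinks interval in place of FPKM, a quantity described below, the class held 0.416% of replicate 1 and 0.287% of replicate 2.

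H/ACA box RNAs were led by SNORA73A, an abundant snoRNA of the SNHG3 locus, with 582 FPKM in replicate 1 and 10481 in replicate 2. SNORA63 had 39.0 and 2467 FPKM, and SNORA48 had 149 and 1005. SNORA53 was nearly level at 247 and 275 FPKM, and SNORA4 was lower in replicate 2 at 247 and 165. Of the 100 genes of the class, 37 reached 1 FPKM in both libraries, 18 were at 0 in replicate 1 and at 10 FPKM or more in replicate 2, and 7 showed the opposite, against 0.427% and 0.15% of all genes.

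Cajal body RNAs gave a mixed picture. SCARNA10 had 721 FPKM in replicate 1 and 2208 in replicate 2, and SCARNA2 had 50.5 and 1097. SCARNA7 went the other way with 597 and 250, but its interval midpoints were 236 and 236. The midpoints of SCARNA10 (284 and 743) and SCARNA2 (27.3 and 259) were higher in replicate 2. Of the 23 genes of the class, 11 reached 1 FPKM in both libraries and 7 were at 0 in both.

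Spliceosomal snRNAs had lower levels than the 4 leading polymerase III RNAs. RNU4-2, a U4 RNA, had 225 and 865 FPKM, RNU4-1 had 94.3 and 241, and RNU5E-1, a U5 RNA, had 59.2 and 242. RNU1-1, RNU2-1 and RNU6-9, members of multi-copy families, were listed at 0 in both libraries. How the alignment treated reads of their many genome copies is not given in the sources used here, so a listed 0 and absence cannot be told apart. Of 29 snRNA genes, 7 reached 1 FPKM in both libraries and 18 were at 0 in both.

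Ribosomal RNA gave almost no usable value. RNA45SN5, the precursor transcript, had 0.742 FPKM in replicate 1 and 1.45 in replicate 2. Records of RNA18SN5, RNA28SN5 and RNA5-8SN5 were at 0 in replicate 1, and 2, 1 and 3 of them had the status HIDATA in replicate 2. RNA5S9, a 5S RNA, was listed at 0 in replicate 1 and had 39.4 FPKM in replicate 2. No record of the mitochondrial genome was present, so mitochondrial transcripts have no value here.

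MicroRNA hairpin records were at 0 in both libraries for 1540 of 1590 genes. MIR3654 was the highest, with 837 FPKM in replicate 1 and 9607 in replicate 2. MIR3064 was listed at 0 in replicate 1 and had 2082 FPKM in replicate 2, and MIR5047 had 329 and 948. Only 4 hairpin genes reached 1 FPKM in both libraries. Of the 48 records that reached 1 FPKM in at least 1 library, 37 lay within the span of another named record, such as MIR3064 and MIR5047 in DDX5 and MIR3654 in CHCHD3. Reads of the surrounding transcript and of the hairpin cannot be told apart at these records.

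Replication-dependent histone mRNAs were prominent among coding transcripts. H2AC20 had 562 FPKM in replicate 1 and 2205 in replicate 2, H3C10 had 117 and 2264, and H3C2 had 177 and 2174. H2AC11, H2AC13, H2AC6 and H2AC12 had between 114 and 265 FPKM in replicate 1 and between 1498 and 2017 in replicate 2. All 7 of these genes were thus higher in replicate 2. Some members differed less: H2BC4 had 398 and 441 FPKM, and H1-4, a linker histone, had 385 and 449.

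Of 70 histone genes, 18 were at 0 in both libraries and 50 reached 1 FPKM in both. At least 2-fold higher scaled FPKM was found for 42 of the 50 in replicate 2 and for 1 in replicate 1. Over all 9757 genes with a mean of at least 1, 27.0% were at least 2-fold higher in replicate 2 and 18.3% in replicate 1, with a median log2 ratio of 0.01. By interval midpoint 26 of the 50 were higher in replicate 2 and 2 in replicate 1, against 13.4% and 19.3% of all genes, with a median log2 ratio of 1.12. With FPKM their median log2 ratio was 2.75, and 0.02 with equal totals (both libraries scaled to the same summed FPKM), a setting under which the median of all genes moved to -2.70.

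Cytosolic ribosomal protein mRNAs were also among the highest coding transcripts. RPL38 had 1231 FPKM in replicate 1 and 755 in replicate 2, RPL30 had 1176 and 709, and RPL26 had 1144 and 470. RPS21 had 91.0 and 2223 FPKM, and RPL37A had 386 and 1336. The members thus moved in both directions. Of 70 with a mean of at least 1, 36 were at least 2-fold higher in replicate 2 and 7 in replicate 1 (RPS25, RPL14, RPS6, RPL28, RPL5, RPL37 and RPL11), and the median log2 ratio was 1.02, or -1.70 with equal totals. Of all genes, 27.0% and 18.3% were higher in replicate 2 and in replicate 1 by FPKM. With interval midpoints 27 of 72 ribosomal protein genes were higher in replicate 2 and 7 in replicate 1, against 13.4% and 19.3% of all genes, with a median of 0.57.

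Other coding genes with high FPKM encode small abundant proteins. MT2A, a metallothionein that binds zinc and copper, had 576 and 1735 FPKM. S100A6, a calcium-binding protein, had 233 and 1880, and LGALS1, the secreted lectin galectin-1, had 256 and 1533. TMSB10, a thymosin that binds actin monomers, had 611 and 804. Each of these 4 was higher in replicate 2 by deposited FPKM, but the midpoint of the deposited interval, described below, was 294 and 145 for MT2A.

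Long noncoding RNAs outside the snoRNA families were led by MALAT1, a nuclear speckle RNA, with 525 FPKM in replicate 1 and 164 in replicate 2. NEAT1, the scaffold of paraspeckles, had 32.8 and 15.4, and NORAD had 26.3 and 4.66. All 3 were lower in replicate 2 by FPKM, whereas the interval midpoints were 382 and 572 for MALAT1, 22.9 and 31.8 for NEAT1 and 18.5 and 18.0 for NORAD. Of the 59 genes of this class with a mean of at least 1, 18 were at least 2-fold higher in replicate 2 and 9 in replicate 1. These shares are near the 27.0% and 18.3% of all genes, although 38 of the 59 reached 1 FPKM in both libraries. The counts by interval midpoint were 13 and 14 of 59, against 13.4% and 19.3% of all genes. Among snoRNA host genes, ZFAS1 had 140 and 138 FPKM, SNHG6 had 145 and 93.6, and SNHG5 had 32.8 and 140. Of 19 host genes with a mean of at least 1, 10 were at least 2-fold higher in replicate 2 and 0 in replicate 1, with a median log2 ratio of 1.49, or -1.49 with equal totals and 0.98 by interval midpoint. Long intergenic and antisense RNAs were low, with VPS9D1-AS1 at 4.59 and 17.2 FPKM and URB1-AS1 at 12.9 and 10.2, and 1436 of 1995 were at 0 in both libraries. Among pseudogene RNAs, ANXA2P2 had 68.3 and 55.3 FPKM, and reads shared with its parent gene ANXA2 may be counted there.

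The cell type of the libraries was checked against marker genes. Epithelial keratins were present, with KRT7 at 57.8 and 82.4 FPKM, KRT19 at 36.6 and 78.4, KRT18 at 27.9 and 83.7 and KRT8 at 27.0 and 30.5. EPCAM had 5.26 and 3.83 FPKM, and CDH1, which encodes E-cadherin, had 0.907 and 1.16. Of 8 luminal prostate markers, 5 were listed at 0 in both libraries, among them KLK2, KLK3, TMPRSS2 and FOLH1, and 1 reached a mean of 1. PTPRC, CD3E, HBB, HBA1 and HBA2 of blood and PECAM1, VWF and CDH5 of endothelium were listed at 0, and CD14, COL1A1, COL3A1, APOA1, ALB and SYP stayed below 0.32 FPKM in both. The markers present in both libraries are thus epithelial.

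The coding reference genes of the study's qRT-PCR were also in the background. GAPDH had 348 FPKM in replicate 1 and 616 in replicate 2, ACTB had 429 and 692, and HPRT1 had 6.94 and 3.08. SNORD110 was listed at 0 in replicate 1 and had 231 FPKM in replicate 2, and SNORD55 was listed at 0 in both. LPP, the gene whose intron holds MIR28, had 6.05 and 3.69 FPKM, and SREBF2, the sterol-responsive transcription factor, had 4.93 and 14.8. The background therefore held transcripts of each of these coding genes without a biotin tag.

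Agreement between the libraries was moderate over all genes. The correlation across genes of log2 scaled FPKM was r = 0.52 (Spearman's rho 0.58) over the 9757 genes with a mean of at least 1, 0.65 over 9213 coding genes and 0.09 over 544 noncoding genes. Only 310 noncoding genes reached 1 FPKM in both libraries, so others of the 544 passed through the library in which they were high, and nothing is read from this r. By interval midpoint r was 0.31 over 555 noncoding genes. These are correlations across genes that share library, depth and base composition, and genes are not independent replicates. The 10 highest genes of each library shared 4, the 100 highest shared 50, and the 1000 highest shared 562.

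A closer look was taken at what the FPKM contain, since each deposited value comes with the lower and upper bound of a Cufflinks interval. For NCL, which encodes nucleolin, replicate 1 listed 64.4 FPKM with bounds of 59.8 and 66.3, and replicate 2 listed 6.02 with bounds of 62.8 and 69.6. For MALAT1, replicate 1 listed 525 FPKM with bounds of 378 and 385, and replicate 2 listed 164 with bounds of 566 and 579. For SNORD102, replicate 1 listed 3692 FPKM with bounds of 46.5 and 81.7, and replicate 2 listed 778 with bounds of 4.13 and 21.7. The value and its own interval thus gave different pictures of the same record, and the cause was not tested.

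The gap was more frequent in genes with 1 record that overlaps no other record in the genome. Of such records with at least 1 FPKM, 60.4% had an FPKM inside their interval in replicate 1 and 24.99% in replicate 2. Of records that shared a gene or a span, 93.9% and 85.6% were inside. Non-overlapping records shorter than 100 bases lay above their interval in all 7 cases in replicate 1 and all 17 in replicate 2. Among those of 4000 bases or more, 7.37% lay below their interval in replicate 1 and 71.6% in replicate 2.

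For RNAs of the polymerase III class the interval midpoints kept the direction with smaller ratios for 4 members. The midpoint was 17044 in replicate 1 and 24564 in replicate 2 for RN7SK, 5550 and 122650 for RN7SL2, 6158 and 30888 for RPPH1, and 3012 and 18151 for RMRP. The share of midpoints taken by these 4 genes was 22.4% in replicate 1 and 56.6% in replicate 2. For H2AC20 the midpoints were 271 and 246, so the difference seen in FPKM was absent from them. For H3C10 they were 63.2 and 268, lower than the FPKM of 117 and 2264 but with the higher value still in replicate 2.

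Coding genes of at least 1000 bases whose record overlaps no other were then compared on both quantities. With FPKM, r was 0.60 over 3026 genes, and 23.9% were at least 2-fold higher in replicate 2 and 17.3% in replicate 1. With interval midpoints, r was 0.93 over 3061 genes, and 3.69% (113) were at least 2-fold higher in replicate 2 and 2.48% (76) in replicate 1. Within 2-fold lay 58.8% of the former and 93.8% of the latter. By midpoint the libraries were thus close for these messenger RNAs, and by FPKM they were not. For coding genes of that length with overlapping or several records, r was 0.62 with FPKM and 0.67 with midpoints.

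Over all genes, regardless of overlap, interval midpoints gave 13.4% of 9858 genes at least 2-fold higher in replicate 2 and 19.3% in replicate 1, with r = 0.70.

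**Figure D3:**
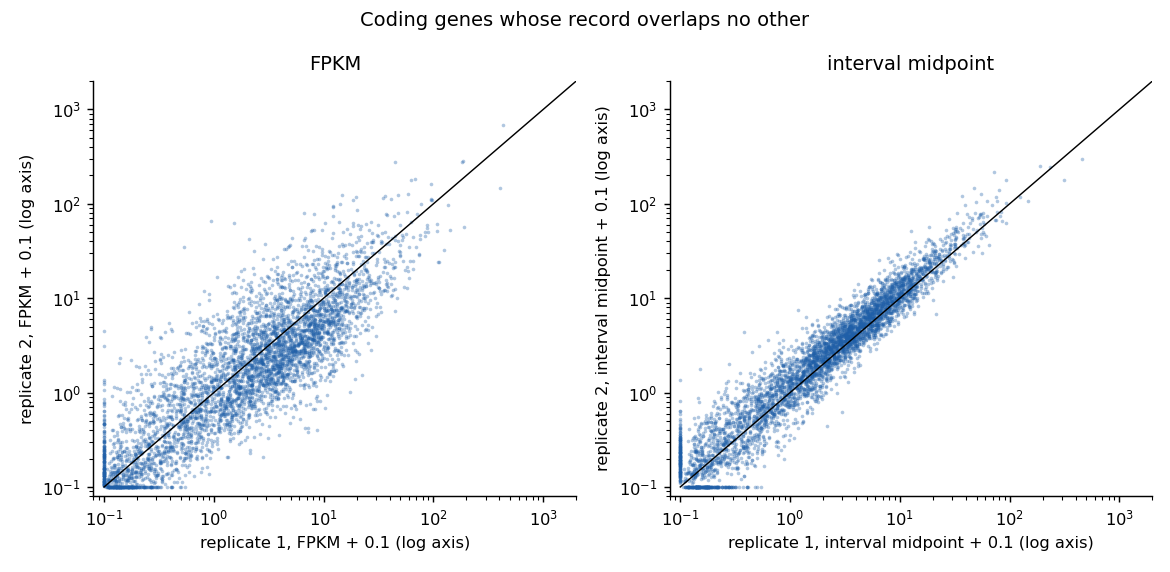
Replicate 2 against replicate 1 for coding genes of at least 1000 bases whose record overlaps no other, as FPKM + 0.1 (left) and as interval midpoint + 0.1 (right), on log axes, as deposited and before scaling. The line marks equal values, and each point is a gene. Points lie closer to the line on the right, where r was 0.93 over 3061 genes, than on the left, where r was 0.60 over 3026. These r were taken over genes with a scaled mean of at least 1, while genes with lower means are also drawn.

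The FPKM ratio between the libraries moved with base composition. For 2468 of 2928 such coding genes (84.3%), a GENCODE 44 transcript of the same symbol and a length within 10% gave the GC content. Across these genes the log2 ratio of FPKM correlated with GC content at r = 0.73 (rho 0.73), and that of midpoints at r = 0.24 (rho 0.23). The median log2 ratio of FPKM rose from -0.83 for the 499 genes below 40% GC to 1.91 for the 346 genes at 60% or more, while that of midpoints went from -0.09 to 0.22.

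Genes with overlapping or several records showed the same relation in both quantities. Over 4995 of them, r with GC content was 0.69 for the FPKM ratio and 0.65 for the midpoint ratio. Their median log2 ratio of FPKM went from -0.94 below 40% GC to 1.84 at 60% or more. Transcript length moved with the ratio to a smaller degree, with r = -0.27 between log2 length and the FPKM ratio of the non-overlapping genes. The part of GC content and length in the FPKM differences of the classes above and the gene lists below was not tested. Histone mRNAs had a median GC content of 58.0% and a median length of 468 bases. Cytosolic ribosomal proteins had 50.7% and 812.5 bases, and all genes 48.1% and 2959 bases. The median GC content was 55.3% for immediate early genes, 51.5% for interferon-stimulated genes and 44.5% for TRiC subunits.

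**Figure D4:**
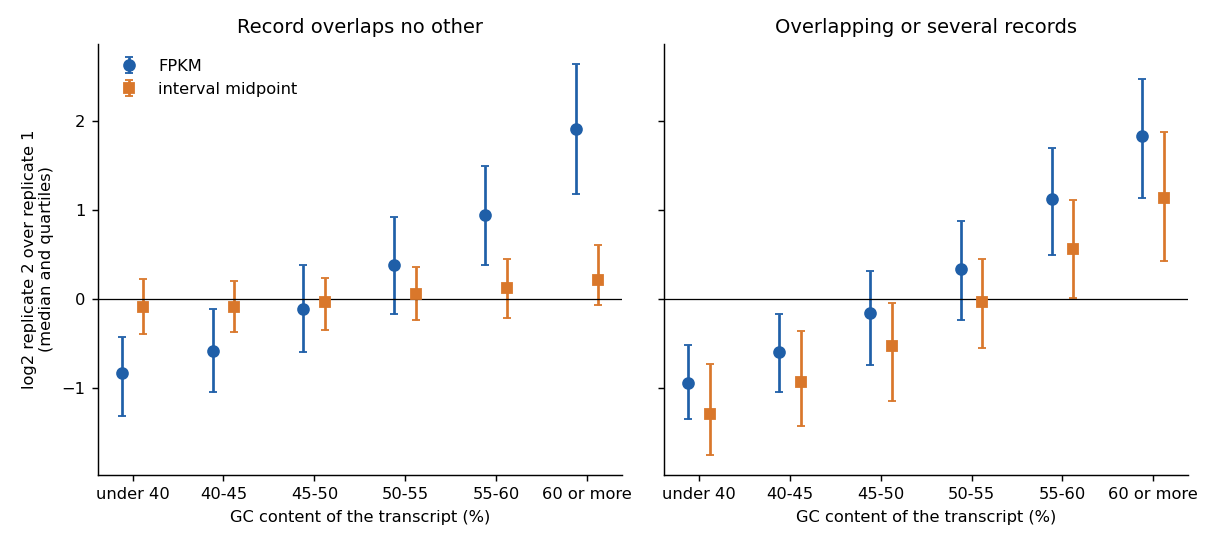
Log2 ratio of replicate 2 over replicate 1 by GC content of the transcript for coding genes of at least 1000 bases. Points are medians and bars reach the quartiles, for FPKM (circles) and interval midpoints (squares), in genes whose record overlaps no other (left) and in genes with overlapping or several records (right). On the left, the FPKM medians climb from -0.83 to 1.91 while the midpoint medians stay between -0.09 and 0.22.

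Gene lists were described by counts and medians of the scaled FPKM, to be read against the 27.0% and 18.3% of all genes that were higher in replicate 2 and in replicate 1. The nuclear-encoded respiratory chain, led by COX8A (183 and 1277 FPKM), had 37 of 77 members at least 2-fold higher in replicate 2 and 6 in replicate 1, with a median log2 ratio of 0.85, or -1.86 with equal totals; GC content was known for too few of its members (71.4%) to be given. Cholesterol synthesis, led by FDPS (33.2 and 75.9 FPKM), had 9 of 19 higher in replicate 2 and 2 in replicate 1, with a median of 0.78, or -2.08 with equal totals and 0.20 when a mean of at least 5 was required, and 52.9% GC. Solute carriers, led by SLC25A3 (76.8 and 158 FPKM), had 57 of 142 higher in replicate 2 and 7 in replicate 1, with a median of 0.68, or -2.03 with equal totals, and 50.3% GC. These 3 lists had medians above that of all genes, whose median GC content was 48.1%. By interval midpoint their medians were 0.54, 0.51 and 0.28, with 28 of 77, 5 of 19 and 32 of 141 members higher in replicate 2, against 13.4% of all genes. Over the 29, 5 and 37 members whose record overlaps no other, midpoint medians were 0.76, 0.70 and 0.08 (FPKM 1.22, 1.64 and 0.31). Of these, 8, 1 and 1 were higher in replicate 2 by midpoint and 2, 0 and 0 in replicate 1, against 239 and 128 of all 3529 such genes. The FPKM median of solute carriers was 0 without a filter on the mean.

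The hnRNP, SR splicing factor and C2H2 zinc finger lists had medians below that of all genes. hnRNP genes had 2 of 24 at least 2-fold higher in replicate 2 and 9 in replicate 1, with a median log2 ratio of -0.79 and a median GC content of 43.5%. Their leading member HNRNPH1 had 155 FPKM in replicate 1 and 64.3 in replicate 2, and HNRNPA2B1 had 86.5 and 27.2. SR splicing factors had 1 of 11 higher in replicate 2 and 5 in replicate 1, with a median of -0.95 and 43.0% GC, and C2H2 zinc finger genes had 34 of 280 and 65, with a median of -0.54 and 44.1% GC. Of all genes, 27.0% and 18.3% were higher in replicate 2 and in replicate 1, to which the zinc finger share in replicate 1 was close. By interval midpoint the medians of these 3 lists were -1.09, -1.02 and -0.35. Over the 2 hnRNP, 1 SR and 149 zinc finger genes whose record overlaps no other, midpoint medians were 0.14, -0.68 and -0.18 (FPKM 0.87, -1.51 and -0.58). Of these 149, 4 were at least 2-fold higher in replicate 2 by midpoint and 9 in replicate 1, against 239 and 128 of all 3529 such genes. Records that share a gene or a span mostly had an FPKM inside their interval, so their midpoints are no separate check.

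Heat shock proteins had 2 of 13 higher in replicate 2 and 7 in replicate 1 (all genes 27.0% and 18.3%), with a median log2 ratio of -1.03. By interval midpoint 1 of the 13 was higher in replicate 2 and 5 in replicate 1 (all genes 13.4% and 19.3%), with a median of -0.01. The HSP90 chaperones HSP90AB1 (335 and 35.3 FPKM), HSP90AA1 (148 and 20.4) and HSP90B1 (118 and 17.8) were all lower in replicate 2, and their midpoints were 339 and 35.7, 149 and 20.6, and 119 and 17.9. Over the 5 members whose record overlaps no other, the median was -0.96 with FPKM and 0.15 with midpoints, and HSPA5, the chaperone of the endoplasmic reticulum, had 23.5 and 9.24 FPKM but midpoints of 20.1 and 31.5. The HSP90 genes are not among these 5.

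The subunits of the TRiC chaperonin, which folds actin and tubulin, differed little between the libraries. CCT3 had 119 and 109 FPKM, CCT7 had 87.3 and 75.2, and CCT5 had 88.4 and 50.7. All 8 members were within 2-fold after scaling, with a median log2 ratio of -0.10, or -0.49 by interval midpoint, against 54.6% of all genes. Proteasome genes had 8 of 37 higher in replicate 2 and 6 in replicate 1 (median 0.27, PSMB4, PSMB6 and PSMD8 leading), mitochondrial ribosomal proteins 23 of 74 and 9 (median 0.20), translation factors 10 of 60 and 17 (median -0.33) and cytoskeletal genes 7 of 26 and 6 (median 0.35, but -0.16 by interval midpoint). Of all genes, 27.0% and 18.3% were higher in replicate 2 and in replicate 1.

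Glycolysis genes had 5 of 15 higher in replicate 2 and 1 in replicate 1 (median 0.57), with ALDOA at 364 and 553 FPKM, ENO1 at 395 and 473 and PKM at 504 and 354. The gene higher in replicate 1 was TPI1, at 8.44 and 0 FPKM. Its record with status LOWDATA, which is not counted, listed 37.8 and 151. Immediate early genes, which respond to stress and growth signals within minutes, had 3 of 15 and 2 (median -0.40), with CCN1 at 24.1 and 14.6 FPKM. Interferon-stimulated genes had 3 of 12 and 1, with ISG15, a ubiquitin-like modifier, at 8.04 and 159 FPKM, and p53 target genes had 4 of 12 and 2, with BAX at 4.85 and 45.6 FPKM. The counts in these lists rest on few genes, against 27.0% and 18.3% of all genes, and by interval midpoint they were 2 and 2 of 16 for glycolysis, 0 and 3 of 15 for immediate early genes, 2 and 2 of 14 for interferon-stimulated genes and 3 and 4 of 12 for p53 target genes, against 13.4% and 19.3% of all genes. The median of p53 target genes turned from 0.16 to -0.34 by interval midpoint, and that of interferon-stimulated genes from -0.30 to 0.81 when a mean of at least 5 was required.

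**Figure D5:**
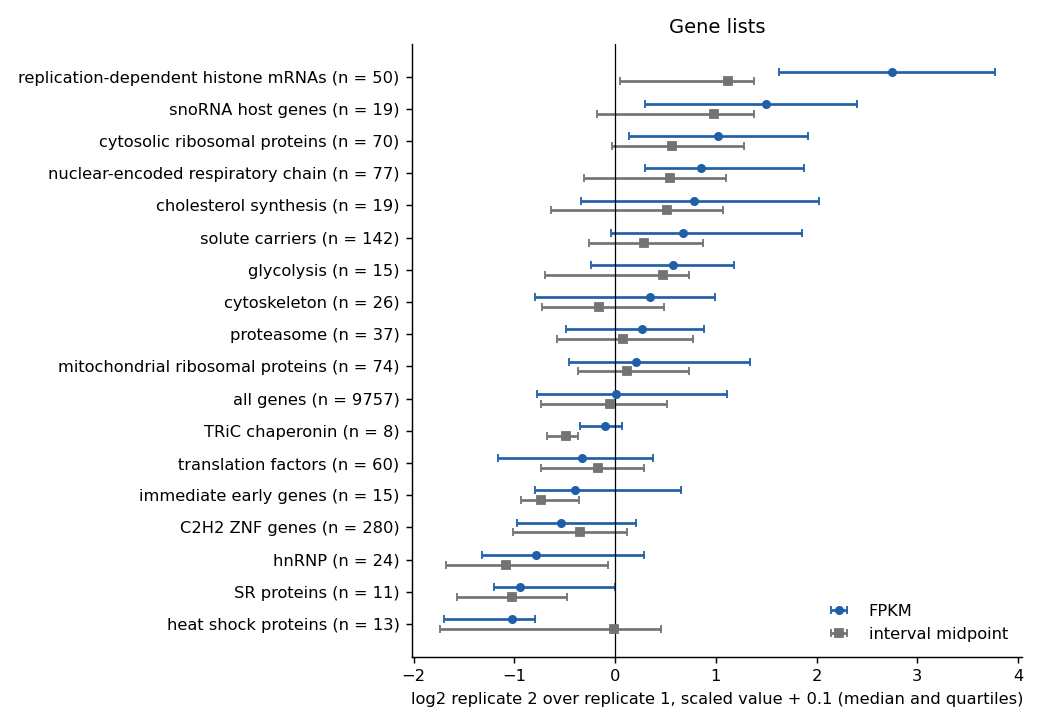
Median log2 ratio of replicate 2 over replicate 1 for gene lists, for scaled FPKM + 0.1 (circles) and scaled interval midpoint + 0.1 (squares), with bars from the lower to the upper quartile and n the genes whose scaled FPKM averaged 1 or more. Histone mRNAs lie to the right of all genes (2.75 by FPKM and 1.12 by midpoint, against 0.01 and -0.05), and heat shock proteins lie at -1.03 by FPKM and -0.01 by midpoint.

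The largest single differences were taken from genes whose scaled FPKM averaged 10 or more and whose longest record had at least 200 bases. Toward replicate 2 they were DYNC2I2 (0 and 114 FPKM), MGAT4B (0 and 52.0), SNORA74B (0 and 29.2), NICOL1 (0.541 and 168), PUSL1 (0 and 25.1), HSPE1 (0 and 22.7), COMMD3 (0 and 22.1), RPS29 (42.5 and 8035), ATRAID (0 and 20.6) and METRN (0.842 and 66.1). In replicate 2 the interval midpoints were smaller than the FPKM for METRN (4.29), PUSL1 (5.87), SNORA74B (4.55) and MGAT4B (21.0), and close to it for DYNC2I2 (115), NICOL1 (170.0), COMMD3 (22.1), ATRAID (20.6), HSPE1 (26.0) and RPS29 (8083). METRN had a midpoint of 0.667 in replicate 1. HSPE1 encodes the mitochondrial chaperonin HSP10, which dividing cells need, so its listed 0 in replicate 1 cannot be read as absence.

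Toward replicate 1 the largest differences were PTMA (48.2 and 2.14 FPKM), SNRPF (55.5 and 2.54), UQCRHL (44.7 and 2.09), ANP32B (22.2 and 1.42), HSP90B2P (32.5 and 2.22), MIX23 (25.4 and 1.79), ANP32E (69.5 and 5.51), ILF2 (187 and 15.3), TOP1 (23.9 and 2.06) and NCL (64.4 and 6.02). Their interval midpoints were 48.1 and 33.4 for PTMA, 32.0 and 29.1 for SNRPF, 28.3 and 16.5 for UQCRHL, and 24.5 and 20.5 for ANP32B. They were 24.0 and 15.5 for HSP90B2P, 23.9 and 15.9 for TOP1, and 63.1 and 66.2 for NCL. For ILF2 and ANP32E, with 2 and 5 records, the midpoints were 188 and 15.4 and 69.6 and 5.51, close to their FPKM. For MIX23, with 1 record that overlaps no other, they were 20.0 and 4.50. The midpoints of PTMA, SNRPF, UQCRHL, ANP32B, HSP90B2P, TOP1 and NCL were thus within 2-fold between the libraries, and those of ILF2, ANP32E and MIX23 were not.

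Zeros in these files need care for genes with copies on alternate contigs of the assembly. Of 735 coding genes with a record on such a contig, 79.6% were at 0 in both libraries, against 27.9% of the 17998 without. The ribosomal protein genes RPS9 and RPS18, with records on alternate contigs, and RPL36A, with 1 record, were listed at 0 in both libraries, although every cell uses them. TPI1, a glycolytic enzyme, had 8.44 FPKM in replicate 1 and 0 in replicate 2 in its records with status OK, and a further record with status LOWDATA listed 37.8 and 151.

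Records without status OK were few. Status LOWDATA was given to 649 records in each library, FAIL to 9 in replicate 1 and 5 in replicate 2, and HIDATA to 12 in replicate 2. The FAIL records were those of CTSL, DDX17 and KDELR3 in replicate 1 and of SMAD2 and FLNA in replicate 2. HIDATA was given to RN7SL1, the ribosomal RNA records, MIR663A, MIR3648-1, LOC100507412 and 1 record without a symbol.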

How the data were processed

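The authors checked reads with FastQC 0.10.1, aligned them to hg38 with TopHat2 2.0.9 and estimated abundance with Cufflinks 2.1.1; the submitters' processing notes, which give these versions, also name cutadapt and Cuffdiff. For each library they deposited FPKM of 53209 RefSeq records with interval bounds, a status and the mean read coverage. The 2 miR-28CT tables list records in different order and were joined on record name, position and length. Records with status OK in both were summed per RefSeq symbol (97.2% had one).

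FPKM were scaled by median-of-ratios factors (1.12 and 0.897) over 13051 genes above 0 in both libraries. Genes whose scaled FPKM averaged 1 or more were compared on log2(scaled FPKM + 0.1), which understates changes of low genes, and 2-fold differences were counted without a test. The interval midpoint is the mean of the deposited bounds. Reads were estimated as coverage times length over 50 bases. The depth was 17.9 and 13.0 in units of 1e+06 reads, and no read count per record is given, so no counting interval was given.

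Named genes were the highest coding, noncoding and short RNAs, the largest differences, the 3 leading members of each list, the study's reference genes, LPP and SREBF2, and records with status HIDATA or FAIL. Other genes were named after their values were seen. Members and lists were chosen with earlier results of these data known. Classes came from symbol patterns. Scripts were tested on simulated data. Python 3.11.15, numpy 2.4.6, pandas 2.3.3 and matplotlib 3.10.9 were used. Some items are not reported here.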

Additional observations from a re-analysis of the deposited data

How the results depend on the processing

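No paired analysis was possible because the libraries are replicates of 1 group and no groups were compared. Each share rests on 2 libraries, and without replicate 1 or replicate 2 the polymerase III share ranged from 38.1% to 78.7% and that of other messenger RNAs from 11.6% to 48.0%. Summing estimated reads in place of FPKM moved these means from 58.4% to 29.2% and from 29.8% to 64.6%.

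The counts of genes at least 2-fold higher in replicate 2 and in replicate 1, 2636 and 1790 with the settings reported, became 255 and 9301 when both libraries were set to the same total, 1564 and 842 with a mean of at least 5, 1157 and 386 with a 4-fold limit, and 4103 and 3797 for records whose intervals did not overlap. Counts in replicate 1 were 2741 with FPKM as deposited and 3097 for single transcripts, and 1322 genes were higher in replicate 2 by interval midpoint, an alternative chosen after seeing the data. The correlation of 0.52 became 0.41 and 0.63 with pseudocounts of 0.01 and 1, 0.60, 0.26 and 0.90 with means of at least 0.5, at least 5 and no filter, 0.21 for single transcripts, and 0.66 without transcripts under 200 bases. It was 0.70 by interval midpoint, and 0.60 and 0.93 for coding genes whose record overlaps no other by FPKM and by midpoint, all chosen after seeing the data. Genes at or above 10 FPKM in both numbered 1606.

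With equal totals the median log2 ratio of all genes moved to -2.70, and most lists moved by about as much, so sign changes there follow from the shift. Of medians of at least 1 in size, those of cytosolic ribosomal proteins (-1.70) and snoRNA host genes (-1.49) turned negative. Smaller positive medians did so too, such as those of the respiratory chain (-1.86), solute carriers (-2.03), cholesterol synthesis (-2.08), glycolysis (-2.09) and the proteasome (-2.45). Medians of Cajal body RNAs (-1.04), H/ACA box snoRNAs (-0.046) and spliceosomal snRNAs (-1.54) were also negative with equal totals. Only 11 of 16, 37 of 66 and 7 of 11 of their genes reached 1 FPKM in both libraries. The others passed through the library in which they were high, so nothing is read from these 3 medians. No ratio can be had with a replicate left out. No read count per record is given, only a mean coverage, which limits what a listed 0 and the level of a short RNA can show. Medians of classes with many listed zeros depend on the pseudocount, as for microRNA hairpins (8.87, with 12.19 and 5.58 at pseudocounts of 0.01 and 1, and 4.82 by interval midpoint), of which 4 of 47 reached 1 FPKM in both libraries.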

Other observations

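Among coding genes of at least 1000 bases whose record overlaps no other, some of the larger differences between the libraries held in both quantities. These genes were chosen after their values were seen. AKR1B1, the aldose reductase, had 13.7 and 64.5 FPKM and midpoints of 12.7 and 51.1, and PSMA7, a proteasome subunit, had 59.1 and 128 FPKM and midpoints of 37.0 and 121. In the other direction, YBX1, an mRNA-binding protein, had 57.1 and 12.6 FPKM and midpoints of 55.7 and 30.0. PFN1, the actin-binding profilin, had 406 and 146 FPKM and midpoints of 313 and 181. With the midpoint factors of all genes (0.942 and 1.06) its log2 ratio was -0.96, just under 2-fold. The factors of these non-overlapping coding genes alone are further apart (0.912 and 1.10), so its place at the 2-fold limit depends on the scaling. CALM2, a calmodulin gene, went from 136 to 96.0 by FPKM and from 72.4 to 219 by midpoint, so the quantities disagreed on its direction.

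SNORA18, SNORA25 and SNORA8, H/ACA box snoRNAs whose records overlap no other, were higher in replicate 2 by both quantities. They had 0 and 318, 21.0 and 367, and 58.9 and 533 FPKM, with midpoints of 0 and 14.6, 2.66 and 46.4, and 5.63 and 21.9.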
